A study of Mus musculus with 6 samples.

Results

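Notch signalling was described through 10 genes chosen by name: the receptors Notch1, Notch2 and Notch3, the ligands Jag1 and Jag2, the targets Hes1 and Hey1, the nuclear coactivator Maml1, the adaptor Numb and the protease Adam10. All 10 were found among the 55414 gene identifiers measured, and 9 had enough counts to be tested. RNA sequencing was carried out on 6 preparations of acinar cells, which make the digestive enzymes of the pancreas, from adult mice. The 3 control preparations carried the genotype Pdx1Cre;Trip12+/+, and the 3 knockout preparations Pdx1Cre;Trip12fl/fl, in which the gene of the E3 ubiquitin ligase TRIP12 is floxed. Both groups therefore carried the Cre recombinase, received no treatment, and had their Trip12 status set by a Pdx1 promoter that is active in pancreatic progenitors, the source of acinar, duct and islet cells alike. The labels number 3 biological replicates in each group and do not say that each came from a separate animal, so p-values measure the spread between these preparations, which may be partly technical.

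Notch is a receptor that is switched on by a ligand on a neighbouring cell. ADAM10 then cuts the receptor outside the membrane, the gamma-secretase complex cuts it inside, and the freed intracellular domain enters the nucleus, where it joins the DNA-binding protein RBPJ and a Mastermind coactivator and switches on genes such as Hes1 and Hey1. In the developing pancreas this pathway keeps progenitors from becoming acinar cells, and in the adult it is known for its return when acinar cells take on duct features.

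The libraries held between 31019500 and 34041901 gene counts. Trip12 itself ran from 22.3 to 29.0 CPM (counts scaled to the normalised library size) in control and from 13.0 to 14.7 CPM in knockout, with no overlap (log2 fold change -0.89, SE 0.14, adjusted p 0.0256, edgeR's quasi-likelihood test). The acinar enzyme gene Cpa1 stood between 43303 and 64055 CPM in every library, and no gene on the lists of duct, endothelial, mural, leukocyte, islet or Schwann cell markers was at 0 in all libraries. Control replicates 2 and 3 had 2118 and 2440 counts of Xist, the transcript of the inactive X chromosome of females, against 3 to 5 in the other 4 libraries, so sex was partly confounded with genotype. A gene is called here when its Benjamini-Hochberg adjusted p lies under 0.05 over all 13115 genes tested. The groups were compared without regard to replicate number and, as an alternative, with the number as a block, which compares each knockout with the control of the same number. The labels do not say that equal numbers belong together, and the pairing was taken from these expression data. In pairs 2 and 3 the control had many Xist counts and the knockout few, so the block does not separate sex from genotype.

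Of the Notch genes, the receptor Notch1 stood apart. Its 3 knockout values all lay above its 3 control values, about 2.73-fold on average. It passed the test with the replicate block but not without it. The other receptors, both ligands, the target Hes1, Maml1, Numb and Adam10 passed neither test. Without the block 0 of the 9 tested members were called, against 0.945% of all genes tested (124 of 13115), and with it 1 of 9 was called, against 5.99% of all genes. At an unadjusted p under 0.05 without the block there was 1 member, again Notch1, against 16.7% of all genes, and DESeq2 called it too (1 of 9, against 4.52%). The median log2 fold change over the 9 members was 0.16, beside 0.02 over all genes tested, with 6 positive and 3 negative.

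**Figure D1:**
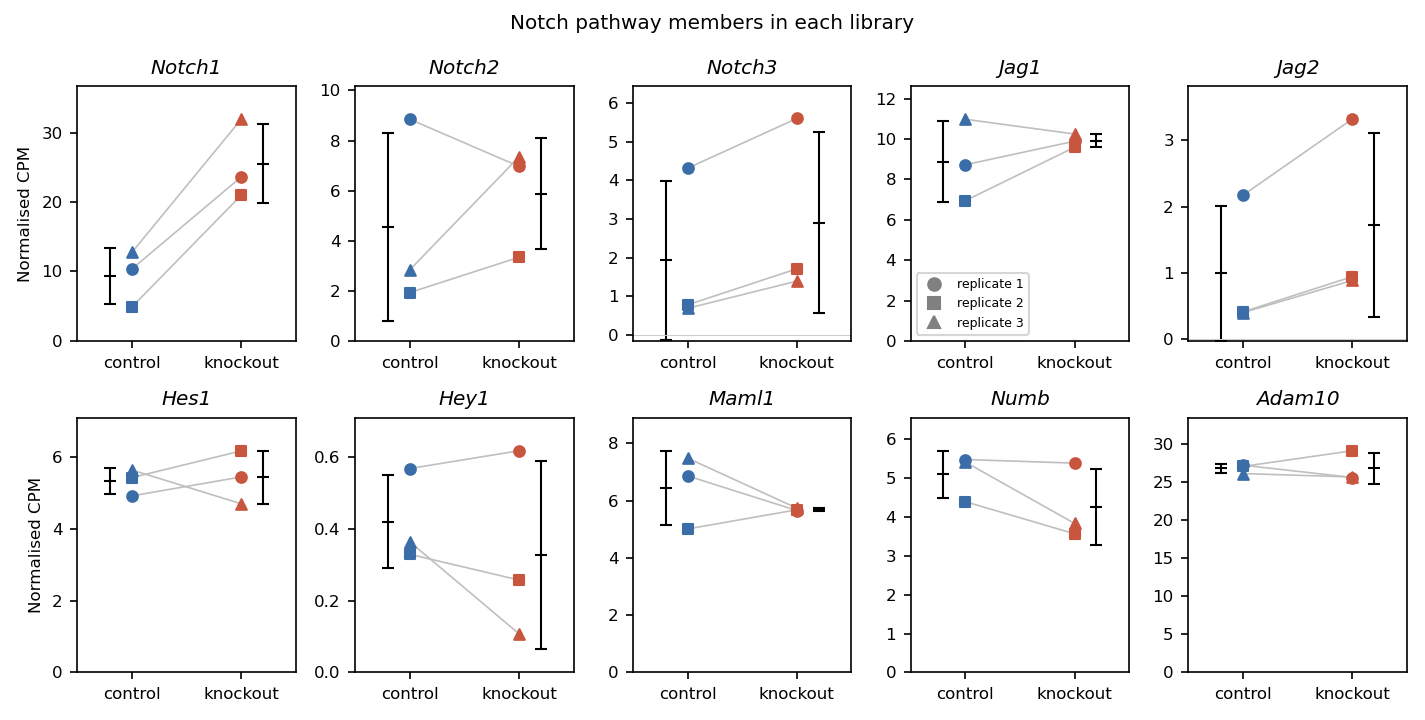
Normalised CPM of the 10 Notch genes in each library, controls on the left and knockouts on the right of each panel. Grey lines join libraries with the same replicate number, and bars give the mean ± SD of 3 libraries. In the Notch1 panel all 3 knockouts lie above all 3 controls, and in the Notch3 and Jag2 panels both libraries numbered 1 lie above the other 4.

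Notch1 (ENSMUSG00000026923, chromosome 2), a receptor that acts in blood vessels as well as in epithelia, was counted 329, 119 and 351 times in controls 1 to 3, against 881, 735 and 1190 times in knockouts 1 to 3. Scaled to library size, these were 10.4, 4.89 and 12.8 CPM in the controls, against 23.6, 21.0 and 31.9 CPM in the knockouts. The lowest knockout value was thus above the highest control value, a pattern that 12.0% of all tested genes showed in this direction. The means were 9.34 ± 4.03 CPM for the controls and 25.5 ± 5.71 CPM for the knockouts (SD, n = 3). The log2 fold change was 1.45 (SE 0.35, adjusted p 0.128 in edgeR's test). The replicate block gave 1.52 (SE 0.18, adjusted p 0.00116 in edgeR's test), the knockout being 2.28, 4.29 and 2.50 times its numbered control in pairs 1 to 3. An exact two-sided permutation test gave p = 0.1, and no smaller p is possible with groups of 3.

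The Notch1 difference kept its direction in all 21 alternative fits, with log2 fold changes from 1.14 to 1.84, and its adjusted p ran from 1.17e-09 without a filter on low counts to 0.513 with sex as a covariate (both edgeR). It was called in 7 of the 21: the blocked fit and its refits without replicate 1, 2 or 3, library totals, no filter, and DESeq2. The blocked fits share a pairing taken from these data. Library totals called 11.6% of all genes, and the fit without a filter 3.30%. No unblocked fit that left out 1 library called Notch1, with adjusted p from 0.124 to 0.315 in edgeR's test. With sex as a covariate the log2 fold change was 1.30, and control replicate 1, the only control with as few Xist counts as the knockouts, held 10.4 CPM against at least 21.0 CPM in the knockouts. That is 1 control library, too few to tell the part of sex in the difference apart from that of genotype. The blocked call was also made when both libraries of any one number were left out, with adjusted p from 1.04e-05 to 0.0275 in edgeR's test. With so few libraries these fits lean mostly on the variance shared across genes. The fit without replicate 2 called 100 of 13712 tested genes, and that without replicate 3 called 832 of 13626. Notch1 overlaps opposite-strand gene models in the GRCm38 annotation, and its count without regard to strand was below the sum of its counts by strand. Adding the forward-strand and reverse-strand counts gave 398, 171 and 445 counts in control and 1161, 949 and 1436 in knockout, of which the counts used held 69.6% to 82.9%. On these sums the log2 fold change was 1.43 without the block (adjusted p 0.0797 in edgeR's test). The overlapping model with any reads of its own, 0610009E02Rik, had at most 10 counts in a library. Reads that fall on both models are left out of this count too. It therefore cannot show to which model the missing reads belonged.

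The start of Notch1 is shown because this member differed, beside that of Rbpjl, the RBPJ paralogue described further down, which had the largest log2 fold change of the 49 further pathway genes tested (1.24, with Dtx3 close to it at 1.18). The 250 bases before the annotated start are given 5′ to 3′ on the gene's own strand, from RefSeq on build GRCm38.p6, for Notch1 at chr2:26503823-26504072 (minus strand) and for Rbpjl at chr2:164402944-164403193 (plus strand). Capitals mark the core letters of the RBPJ motif, TGGGAA or its reverse complement TTCCCA.
Notch1: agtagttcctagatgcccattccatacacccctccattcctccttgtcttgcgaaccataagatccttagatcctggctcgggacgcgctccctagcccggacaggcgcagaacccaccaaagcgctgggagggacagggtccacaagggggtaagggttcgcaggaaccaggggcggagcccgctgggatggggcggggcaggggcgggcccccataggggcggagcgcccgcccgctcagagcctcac
Rbpjl: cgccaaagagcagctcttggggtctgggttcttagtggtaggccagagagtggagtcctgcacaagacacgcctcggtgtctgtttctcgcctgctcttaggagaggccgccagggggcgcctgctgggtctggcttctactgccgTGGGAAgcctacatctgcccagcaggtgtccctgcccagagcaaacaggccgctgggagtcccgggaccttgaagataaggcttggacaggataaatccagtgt
The Notch1 window holds 16 CpG pairs and 66% G and C, beside a median of 6 CpG pairs and 52.4% over the 32851 promoters of the table. It holds no RBPJ core on either strand, and neither does the same window of the 7 other members in the table (Notch2, Notch3, Jag1, Jag2, Maml1, Numb and Adam10). The letters occur in 21.6% of all promoter windows of that length. The Rbpjl window holds 1 match, which starts 104 bases before the gene, followed by an E-box (CANNTG, found in 66.2% of all windows) at 93 and another at 82 bases before it. The core is not particular to Rbpjl. Rbpj holds it at 149 and 65 bases before 1 annotated start and at 205 bases before another. These windows overlap, and the matches at 65 and at 205 bases are the same site. The windows of Notch4 and Dtx1 hold none. These are matches of letters only.

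Notch2 and Notch3 are the other receptors among the members, and Notch3 is known for its place in the smooth muscle and pericytes of vessels. Notch2 (ENSMUSG00000027878, chromosome 3) measured 8.85, 1.93 and 2.84 CPM in controls 1 to 3, against 6.97, 3.34 and 7.35 CPM in knockouts 1 to 3. Its highest library was a control and the groups overlapped widely, with a log2 fold change of 0.36 (SE 0.64, adjusted p 0.85 in edgeR's test). Without control replicate 1 it was 1.28 (adjusted p 0.103 in edgeR's test), and without control replicate 2 it was 0.0084. Notch3 (ENSMUSG00000038146, chromosome 17) measured 4.32, 0.780 and 0.691 CPM in the controls, against 5.60, 1.71 and 1.39 CPM in the knockouts. Both libraries numbered 1 stood above the other 4, whatever the genotype, while within each pair the knockout was the higher, by 1.30, 2.19 and 2.02 times, which 24.2% of all tested genes also were. The log2 fold change of Notch3 was 0.58 (SE 0.91, adjusted p 0.826 in edgeR's test) and, with the block, 0.77 (SE 0.27, adjusted p 0.122).

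The libraries numbered 1 also held the most RNA of vessel cells. The summed level of 8 endothelial markers was 80.1 CPM in control replicate 1 and 89.2 CPM in knockout replicate 1, and between 17.3 and 31.8 CPM in the other 4 libraries. The range was thus 17.3 to 80.1 CPM in control and 26.3 to 89.2 CPM in knockout. Without the block 0 of the 8 markers were called, beside 0.945% of all genes tested, and with it 0, beside 5.99%. At such shares 0 of 8 says little about these markers. Within the pairs, however, the endothelial sum was higher in each knockout, by 1.11, 1.52 and 1.21 times, as were 6 of the 8 markers (Pecam1, Cdh5, Kdr, Tek, Egfl7 and Vwf), so it moved in the same direction as Notch1, Notch3 and Jag2. The pericyte and stromal list of 10 genes ran from 26.1 to 102 CPM in control and from 30.2 to 115 CPM in knockout, with the 3 highest sums in both libraries numbered 1 and knockout replicate 3. Without and with the block 0 of 10 were called, beside the same shares of all genes. That sum too was higher in the knockout of every pair, by 1.13, 1.16 and 2.83 times, as were 4 of the 10 genes. Of all tested genes, 24.2% were higher in the knockout of every pair. The endothelial receptor Notch4, not itself a member, measured 3.94, 1.03 and 1.38 CPM in controls 1 to 3, against 3.22, 1.11 and 1.05 CPM in knockouts 1 to 3. Notch3, Notch4 and Jag2 were thus highest in the libraries richest in endothelial markers. Notch1 held 10.4 CPM in control replicate 1 and 12.8 CPM in control replicate 3, and within the pairs it rose as the endothelial sum did. In such bulk samples, fewer cells of a type and less RNA per cell cannot be told apart, and the part of these cells in the receptor levels was not tested.

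**Figure D2:**
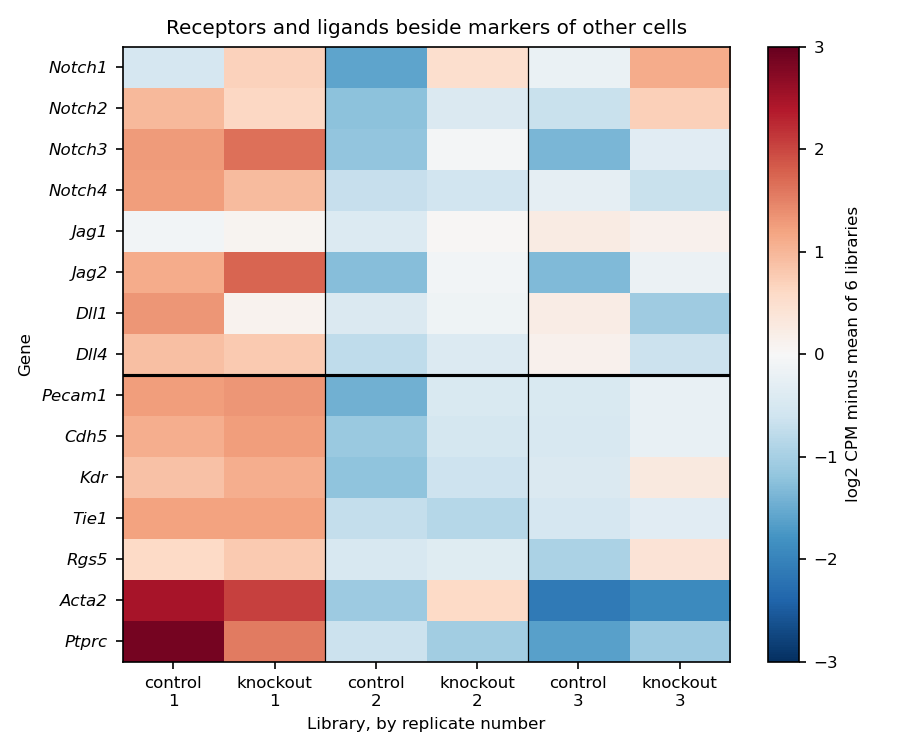
Log2 normalised CPM of Notch receptors and ligands, above the black line, and of endothelial (Pecam1, Cdh5, Kdr, Tie1), pericyte or smooth muscle (Rgs5, Acta2) and leukocyte (Ptprc) genes, below it, each minus its mean over the 6 libraries. Columns are ordered by replicate number, and the colour scale ends at 3 in either direction. Notch3, Notch4 and Jag2 are highest in both libraries numbered 1, as are the endothelial genes, while Notch1 is higher in the knockout of every pair.

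Levels of different receptors were compared per kilobase of exon, since a longer transcript gives more counts at the same abundance. The length used joined the exons of all annotated transcripts of a gene (14.2 kb for Notch1, 10.8 kb for Notch2). It may exceed that of the transcripts present, which would understate a level, and this was not tested. On this scale Notch1 averaged 0.656 CPM per kb ± 0.283 (SD, n = 3) in control and 1.79 CPM per kb ± 0.401 in knockout. Notch2 averaged 0.421 ± 0.349 and 0.546 ± 0.205 CPM per kb, and Notch3 0.238 ± 0.256 and 0.359 ± 0.290 CPM per kb, so the order in the means was Notch1, Notch2, Notch3 in both groups. Neighbours in this order overlapped within their SD in control. In knockout Notch1 stood above Notch2 by more than both SDs, and Notch2 and Notch3 overlapped. The counts used held 69.6% to 82.9% of the strand-summed Notch1 counts, depending on the library, and 100% of those of Notch2. The level and share of Notch1 may thus be understated beside Notch2, by an amount that differs between libraries. The summed level of Notch1 to Notch4 was 2.57, 0.746 and 1.42 CPM per kb in control and 3.40, 2.13 and 3.23 CPM per kb in knockout, which overlapped (exact two-sided permutation test, p = 0.2), with the knockout the higher in every pair.

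Within that sum Notch1 held 28.3%, 46.0% and 63.3% in controls 1 to 3, against 48.8%, 69.1% and 69.5% in knockouts 1 to 3. The mean share was 45.9% ± 17.5 (SD, n = 3) and 62.5% ± 11.8, a difference of 16.6 percentage points within overlapping groups (exact two-sided permutation test, p = 0.2, adjusted over 4 receptors 0.4). The knockout share was the higher in every pair, and leaving out 1 library moved the difference between 7.82 points (without control replicate 1) and 25.3 points (without control replicate 3). The share of Notch4 was 19.0%, 17.1% and 12.1% in control and 11.7%, 6.47% and 4.02% in knockout, which did not overlap (exact test, p = 0.1, the smallest possible, adjusted 0.4). Notch2 differed by -6.61 and Notch3 by -1.35 percentage points, with exact p of 0.3 and 0.7 (adjusted 0.4 and 0.7).

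**Figure D3:**
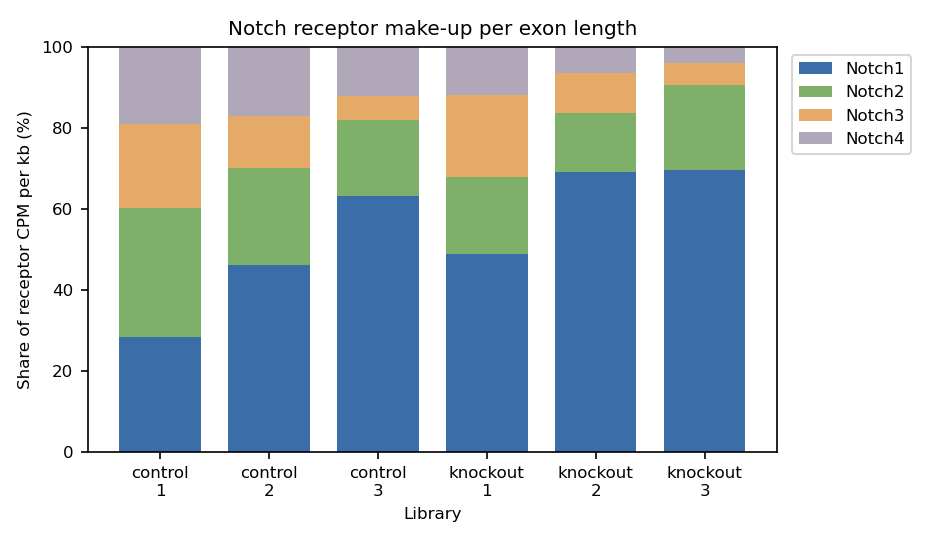
Share of each Notch receptor in the summed Notch1 to Notch4 level, in CPM per kilobase of exon, for each library. On the counts used, Notch1 is the largest share in every library except control replicate 1, where Notch2 holds 31.9% and Notch1 28.3%. In that library the counts used held 82.7% of the strand-summed Notch1 counts and 100% of those of Notch2, so their order there is not settled.

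Jag1 and Jag2 are membrane-bound ligands that a cell presents to its neighbours. Jag1 (ENSMUSG00000027276, chromosome 2) measured 8.73, 6.94 and 11.0 CPM in controls 1 to 3, against 9.89, 9.59 and 10.2 CPM in knockouts 1 to 3. The knockouts fell inside the control range, and the log2 fold change was 0.16 (SE 0.17, adjusted p 0.719 in edgeR's test). Jag2 (ENSMUSG00000002799, chromosome 12) was scarce, with 2.17, 0.411 and 0.400 CPM in the controls, against 3.32, 0.942 and 0.885 CPM in the knockouts. In 2 of the 3 controls this was 10 and 11 counts, and, as with Notch3, both libraries numbered 1 stood highest. The log2 fold change of Jag2 was 0.77 (SE 0.83, adjusted p 0.716 in edgeR's test) and, with the block, 0.92 (SE 0.34, adjusted p 0.143), each knockout being above its numbered control. Per kilobase of exon, Jag1 averaged 1.52 CPM ± 0.347 (SD, n = 3) in control and Jag2 0.143 CPM ± 0.147.

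Hes1 and Hey1 encode repressors that the RBPJ complex switches on, and they serve as readouts of the pathway. Hes1 (ENSMUSG00000022528, chromosome 16) measured 4.91, 5.42 and 5.63 CPM in controls 1 to 3, against 5.44, 6.17 and 4.69 CPM in knockouts 1 to 3. The groups overlapped, and both the highest and the lowest library were knockouts. The means of Hes1 were 5.32 ± 0.370 CPM for the controls and 5.43 ± 0.736 CPM for the knockouts (SD, n = 3). The log2 fold change was 0.03 (SE 0.16, adjusted p 0.954 in edgeR's test). Per kilobase it had the second highest level of the members, 2.61 ± 0.182 CPM per kb in control and 2.67 ± 0.361 in knockout. Hey1 (ENSMUSG00000040289, chromosome 3) was near the limit of detection, with 18, 8 and 10 counts in the controls, against 23, 9 and 4 in the knockouts, and did not pass the filter on low counts. Its 0.420 CPM ± 0.129 in control and 0.327 CPM ± 0.262 in knockout overlapped, and it too was highest in the libraries numbered 1.

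Maml1, Numb and Adam10 act at 3 other steps. Maml1 (ENSMUSG00000050567, chromosome 11), the Mastermind coactivator of the nuclear complex, measured 6.87, 5.01 and 7.49 CPM in controls 1 to 3, against 5.66, 5.68 and 5.74 CPM in knockouts 1 to 3. The knockouts lay close together inside the control range, with a log2 fold change of -0.18 (SE 0.18, adjusted p 0.672 in edgeR's test). Numb (ENSMUSG00000021224, chromosome 12), an endocytic adaptor that restrains Notch at the membrane, measured 5.48, 4.40 and 5.42 CPM in the controls, against 5.39, 3.57 and 3.84 CPM in the knockouts. Each knockout was below its numbered control, in pair 1 by little (0.983 times), and the log2 fold change was -0.26 (SE 0.21, adjusted p 0.591 in edgeR's test; with the block -0.27, SE 0.19, adjusted p 0.422). Adam10 (ENSMUSG00000054693, chromosome 9), the protease of the first cut, measured 27.3, 27.1 and 26.2 CPM in the controls, against 25.7, 29.2 and 25.7 CPM in the knockouts. It was the steadiest member, its highest library being 1.14 times its lowest, and per kilobase the most abundant, at 5.47 ± 0.121 CPM per kb in control and 5.46 ± 0.410 in knockout (SD, n = 3).

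**Figure D4:**
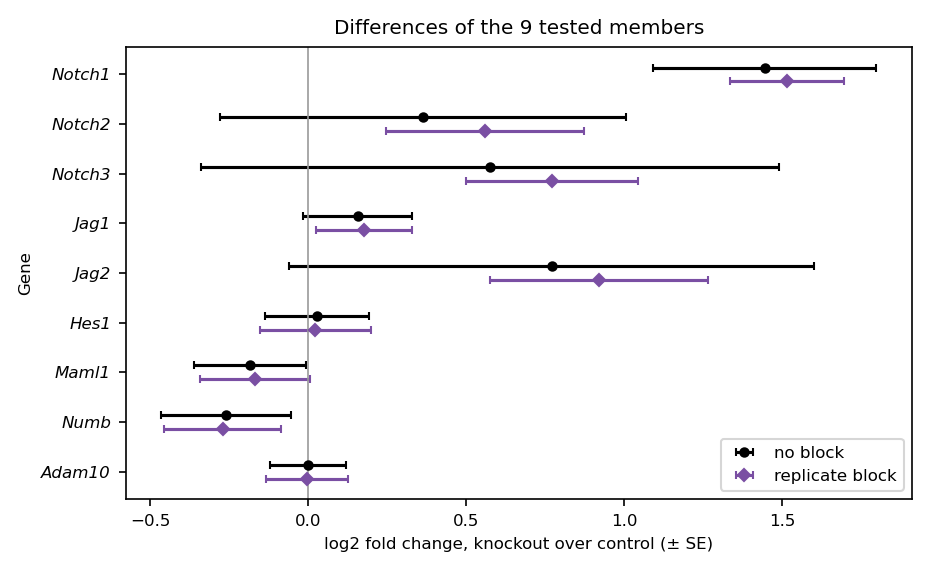
Log2 fold change of knockout over control for the 9 tested members, without (circles) and with (diamonds) the replicate block. Bars give ± 1 standard error, not a test. Notch1 lies at 1.45 and 1.52, and the block shortens the bars of Notch1, Notch2, Notch3 and Jag2, while those of Hes1 and Adam10 are slightly longer with it.

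The genes whose pattern over the 6 libraries was most like that of a member were sought by Pearson's correlation of log2 CPM among 12111 other protein-coding genes, for the 3 members with the smallest p. For Notch1 these were Txndc16 (r = 0.997), Gatad2b (r = 0.994) and Zbtb46 (r = 0.992). Txndc16 ran from 3.78 to 5.56 CPM in control and from 6.34 to 7.70 CPM in knockout. For Numb they were Bmpr2 (r = 0.992), Cutal (r = 0.987) and Adra2a (r = 0.975), and for Maml1 they were Pim1 (r = 0.990), Rock1 (r = 0.989) and Tent4b (r = 0.982). With 6 shared libraries and so many genes compared, such values are a description only.

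The rest of the pathway was read from a list of 58 further genes, of which 49 could be tested. The list was written with earlier results of these data known. Without the block 1 was called, Dtx1, higher in knockout, and 0 lower, beside 0.465% and 0.480% of all genes. With it 5 were called higher (Rbpjl, Myc, Dtx1, Dtx3 and Dtx4) and 1 lower (Aph1c), beside 3.40% and 2.58% of all genes. These blocked calls rested on few libraries: without both libraries of number 1, 2 or 3, the blocked fit called 3, 0 and 3 of the listed genes. At an unadjusted p under 0.05 without the block, 8 were higher and 2 lower, beside 8.45% and 8.27% of all genes. The median log2 fold change over the 49 was 0.06, beside 0.02 over all genes.

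Deltex proteins are ubiquitin ligases, of which DTX1 is known to bind the intracellular part of Notch. Dtx1 (ENSMUSG00000029603, chromosome 5) measured 23.3, 28.4 and 26.8 CPM in controls 1 to 3, against 45.8, 40.5 and 43.1 CPM in knockouts 1 to 3, with no overlap. Its mean rose from 26.2 ± 2.59 to 43.2 ± 2.64 CPM (SD, n = 3), which is 0.72 on the log2 scale (SE 0.13, adjusted p 0.0493 in edgeR's test, 0.0133 with the block). This call was marginal. It was lost in 12 of 21 alternative fits, including each that left out a control or knockout library except control replicate 1, with adjusted p from 8.38e-05 (DESeq2) to 0.207 (edgeR without knockout replicate 1) and a positive log2 fold change in all 21. Dtx4 measured 8.95, 8.22 and 8.14 CPM in the controls, against 12.2, 11.4 and 14.8 CPM in the knockouts, which did not overlap (adjusted p 0.0909 in edgeR's test, 0.0383 with the block). Dtx3 measured 5.29, 2.63 and 2.94 CPM in the controls, against 9.57, 10.1 and 5.07 CPM in the knockouts, where the lowest knockout lay under the highest control (adjusted p 0.170 in edgeR's test, 0.0156 with the block).

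Of the 12 genes of the nuclear complex and its corepressors, Rbpjl alone was called with the block and 0 without it. RBPJ carries the Notch signal to DNA, while its paralogue RBPJL is found in acinar cells, where it works with PTF1A on enzyme genes and does not take part in Notch signalling. Rbpj measured 6.46, 6.94 and 8.18 CPM in controls 1 to 3, against 8.47, 6.59 and 10.1 CPM in knockouts 1 to 3, which overlapped (log2 fold change 0.22, SE 0.18, adjusted p 0.615 in edgeR's test). Rbpjl measured 183, 280 and 180 CPM in the controls, against 486, 658 and 370 CPM in the knockouts, so every knockout lay above every control (log2 fold change 1.24, SE 0.26, adjusted p 0.0685 in edgeR's test, 0.00203 with the block). Rbpjl overlaps the opposite-strand gene Matn4, which had 10.5 to 15.0 CPM in counts that leave out reads falling on both genes. The log2 ratio of Rbpjl to Rbpj was 4.82, 5.33 and 4.46 in control and 5.84, 6.64 and 5.20 in knockout. It averaged 4.87 ± 0.44 (SD, n = 3) and 5.89 ± 0.72, with the lowest knockout under the highest control (exact two-sided permutation test, p = 0.2). Within the pairs the ratio was higher in each knockout, by 1.02, 1.31 and 0.74 on the log2 scale.

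Among the 9 receptor-processing genes 0 were called without the block, and Aph1c, a gamma-secretase subunit, was called lower with it. Aph1c measured 6.43, 8.50 and 9.67 CPM in controls 1 to 3, against 5.31, 5.11 and 4.21 CPM in knockouts 1 to 3, with no overlap (log2 fold change -0.75, SE 0.19, adjusted p 0.107 in edgeR's test, 0.0467 with the block). Aph1b is a close paralogue of Aph1c, and how the counting divided reads between them was not tested. Adam17, a protease related to Adam10, lay between 6.57 and 7.71 CPM in control and between 6.99 and 7.86 CPM in knockout. The groups overlapped, and it was not called.

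Of 11 further target genes 6 could be tested, 0 were called without the block, and Myc was called higher with it. Myc, a growth regulator that answers to many signals besides Notch, measured 19.7, 17.8 and 40.6 CPM in controls 1 to 3, against 25.6, 25.6 and 64.6 CPM in knockouts 1 to 3. Both libraries numbered 3 stood highest, and the groups overlapped (adjusted p 0.665 in edgeR's test, 0.0440 with the block), and the blocked fit was the only 1 of 21 alternatives that called it. Heyl measured 3.81, 4.56 and 3.85 CPM in the controls, against 7.26, 4.28 and 7.21 CPM in the knockouts, with 1 knockout inside the control range (log2 fold change 0.62, SE 0.23, adjusted p 0.227 in edgeR's test). Hes5, a main target in other tissues, had 1 count in control replicate 1 and 0 in the other 5 libraries. Nrarp, which feeds back on the pathway, had 5, 0 and 4 counts in control and 13, 0 and 1 in knockout. The Delta ligand genes were low, with Dll1 between 0.241 and 1.26 CPM and Dll4 between 0.452 and 1.42 CPM over the 6 libraries, and neither was called.

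**Figure D5:**
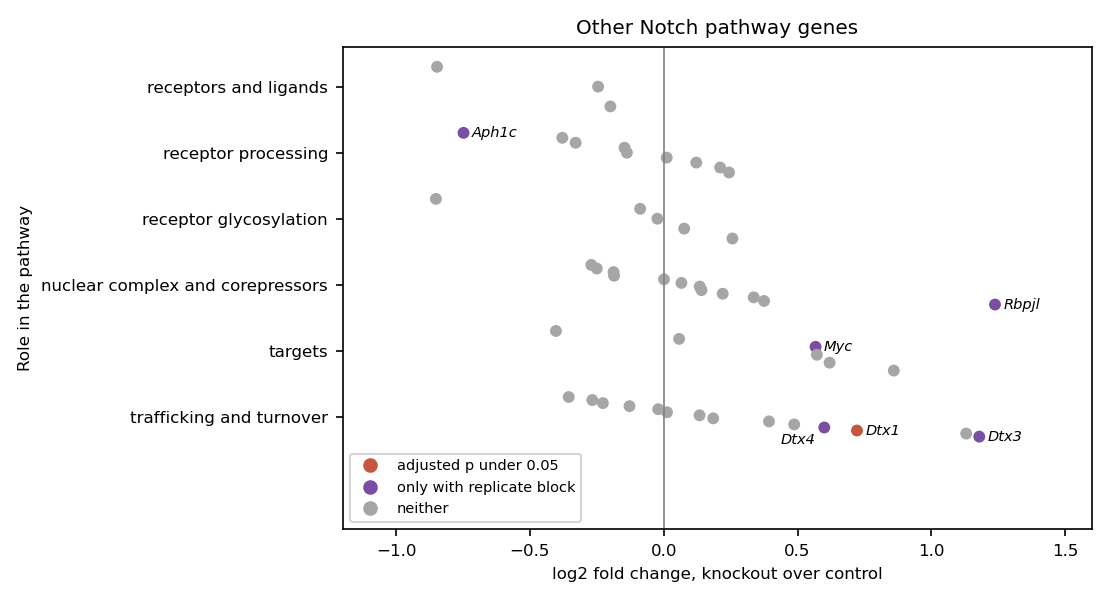
Log2 fold change of knockout over control without the block for 49 further Notch pathway genes, grouped by role. Red marks Dtx1, called without and with the replicate block, purple the 5 genes called only with it, and grey the rest. In the row of trafficking and turnover genes the Deltex genes Dtx1, Dtx3 and Dtx4 lie to the right of zero.

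Markers of other cells were set beside the Notch1 difference. The summed level of 9 duct markers was 217 to 259 CPM in control and 198 to 294 CPM in knockout, and with the block 3 of the 9 were called higher (Krt7, Spp1 and Epcam) and 3 lower (Krt19, Muc1 and Krt23). Over all tested genes the block called 3.40% higher and 2.58% lower. Leukocyte markers (10 genes) summed to 19.2 to 82.0 CPM in control and 16.1 to 63.1 CPM in knockout, and 4 were called higher with the block. Islet markers (7 genes) summed to 351 to 444 CPM in control and 241 to 906 CPM in knockout, with Pcsk2 called higher under the block, and 4 Schwann cell markers to 2.30 to 3.89 and 3.88 to 4.18 CPM. The summed level of 7 acinar markers was 234203 to 318009 CPM in control and 204832 to 219544 CPM in knockout, which did not overlap, and 1 of the 7, Ptf1a, was lower by the blocked test. All of these sums except the acinar one overlapped between the groups, the Schwann cell sums only just. Single markers within the lists did separate the groups. Of the 7 acinar markers 3 were lower without overlap (Cela1, Pnlip and Cel) and 0 higher. Of the 9 duct markers 2 were higher without overlap (Spp1 and Epcam) and 4 lower (Krt19, Cftr, Muc1 and Krt23), and the Schwann cell marker S100b was higher. Over all tested genes 12.0% were higher and 10.9% lower without overlap. Within the pairs the Schwann cell sum was higher in each knockout, by 1.26, 1.69 and 1.02 times, as were the endothelial and the pericyte and stromal sums given above. The duct, leukocyte and islet sums went both ways, and the acinar sum was lower in each. By gene, 5 of the 10 leukocyte markers (Cd68, Adgre1, C1qa, C1qb and C1qc) were higher in every pair, as Notch1 was, and 1 was lower. For the 9 duct markers these counts were 3 and 4, for the 7 islet markers 2 and 0, and for the 7 acinar markers 0 and 7. Over all tested genes the shares were 24.2% and 20.7%. The part of these cells in the Notch1 difference was not tested.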

How the data were processed

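Raw counts per gene were deposited by the authors for each of 6 libraries. The submitters' processing notes name STAR 2.7.10a and build GRCm39 (mm39), and the annotation is not given in the sources used here. Per the labels' protocols, libraries were made from poly-A RNA with random hexamers. Each deposited table holds a count without regard to strand, which was used, and 1 per strand orientation (the forward orientation held 50.1% to 50.3%). The 4 leading rows outside genes (36.9% to 45.7% of reads) stayed out of library sizes and tests. Identifiers were matched to GENCODE M21 on GRCm38 for names, chromosomes and exon lengths (94.1% matched, holding at least 99.8% of counts), and exon lengths may differ from those of the authors' annotation.

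Differences were tested with edgeR 4.0.16 in R 4.3.3 (filterByExpr, TMM scaling, robust quasi-likelihood F test, Benjamini-Hochberg adjustment over all genes tested). Normalised CPM used TMM library sizes, and log2 CPM a prior count of 2. Standard errors were the log2 fold change over the root of F. Single values were compared with exact permutation tests. DESeq2 1.42.0 and limma 3.58.1 gave alternatives, and fits were tested on simulated data. Deviations from group means, compared across genes, correlated at 0.63, 0.455 and 0.285 in same-numbered pairs and between -0.496 and 0.21 in others. Since all 3 exceeded 0.1, the numbers were taken to pair the libraries, a pairing that the labels do not give. It was chosen from the same data that the blocked tests then used. Blocked p-values are therefore less certain than in a design paired beforehand. Members and lists were chosen with earlier results of these data known. Named genes were the members, Trip12, listed genes called with or without the block, a defining gene per role, and the 3 genes most like each of 3 members.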

Additional observations from a re-analysis of the deposited data

How the results depend on the processing

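Without the block 0 members, 1 further Notch gene and 124 genes in all were called. With the replicate block these were 1, 6 and 785, and in blocked fits without replicate 1, 2 or 3 (both libraries, chosen after seeing the data) they were 1, 3 and 396, then 1, 0 and 100, then 1, 3 and 832. The block changed no other call of a member. Library totals gave 1, 9 and 1519 (1442 higher, 77 lower, against 61 and 63), with all genes shifted by 0.41, which turned Maml1 to 0.22, Numb to 0.15 and Adam10 to 0.41. No filter gave 1, 5 and 850, DESeq2 1, 5 and 593, a minimum of 10 counts 0, 2 and 210 (Adam10 0.016), and sex as a covariate 0, 0 and 21 (Notch2 -0.59, Notch3 -0.57, Jag2 -0.34). Further Notch genes called fell to 0 under RLE scaling, with enzymes left out of library sizes and under limma-voom, and were 2 with reverse-strand counts. Hes1 was -0.077 with forward-strand counts and -0.059 and -0.058 in the blocked fits without replicates 1 and 2, and Adam10 was 0.0078 with reverse-strand counts and 0.021 and 0.0086 in the blocked fits without replicates 1 and 3. Leaving out 1 library gave 20 (without control replicate 2) to 461 genes (without control replicate 1), 0 members throughout and 0 to 3 further Notch genes. Log2 fold changes then ran from -0.32 to 1.96 for Notch3, -0.13 to 2.05 for Jag2, 0.0084 to 1.28 for Notch2, 0.0072 to 0.34 for Jag1, -0.074 to 0.12 for Hes1, -0.067 to 0.031 for Adam10 and -0.028 to 1.04 for Myc, and the Notch3 share from -5.60 to 2.41 points. The cause was not tested. Adding both strands' counts, chosen after seeing the data, changed no call of a member. Depth limits Hey1 and Nrarp, at 23 or fewer counts in every library, and Jag2 and Notch3 in control replicates 2 and 3, at 10 to 19 counts.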
